A study of Mus musculus with 6 samples.

Results

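AP-1 and the immediate-early genes are described here in MLL-AF9 leukemia transplanted into mice, as 10 genes chosen by name: Fos, Fosb, Jun, Junb, Jund, Egr1, Egr2, Ier2, Atf3 and Dusp1. All 10 were found by symbol among the 55487 genes of the table, and all 10 were tested, as were 15020 genes in all, those whose normalized count averaged 10 or more. By the labels, messenger RNA was sequenced from GFP+ bone marrow cells of femora and tibiae of C57BL/6 mice. The study's text describes c-Kit+ bone marrow cells, and which holds is not settled here. The donor cells of both groups were CD45.2(+) Mx1-Cre Brd9fl/fl MA9, that is, Brd9 alleles flanked by loxP sites, a Cre recombinase under the interferon-responsive Mx1 promoter, and the MLL-AF9 oncogene carried with GFP by a retrovirus. The recipients were CD45.1(+) CD45.2(-), were irradiated (lethally by the series' design text, sublethally by the study's methods), received 1000 leukemic cells, and were then injected with 3 doses of 20 mg/kg pIpC, a synthetic double-stranded RNA that sets off an interferon response, or of PBS. Cells were taken at 10 days, giving 3 PBS libraries and 3 libraries labelled pIpC. The comparison asks how transcription differs after Brd9, a bromodomain subunit of the non-canonical BAF chromatin remodeling complex, is targeted. Exposure to pIpC and induction of Cre cannot be told apart in this design, since no group received pIpC without the floxed alleles.

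Immediate-early genes are transcribed within minutes of a signal, from promoters that already hold their activators, and need no new protein synthesis. AP-1 is a dimer of a FOS family and a JUN family protein, or of 2 JUN family proteins, that binds DNA through basic leucine zippers. EGR proteins are zinc-finger transcription factors of the same wave, and Dusp1 encodes a phosphatase that switches the activating MAP kinases off again. In blood cells these transcripts follow cytokine and adhesion signals, and they are also raised by warming, enzymatic digestion and sorting of a tissue.

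The libraries held 19277439 to 23586722 reads in genes, and replicates of a group differed beyond counting noise (chi-square per degree of freedom of 6.83 to 216, for the 3 pairs in each group). Brd9 itself did not check the labels: its normalized counts were 1927, 1946 and 1632 in PBS and 2036, 2263 and 2011 in the libraries labelled pIpC (log2 fold change of 0.20 ± 0.13, SE, adjusted p = 0.259, limma), so these libraries are named below by their label. A count over the whole gene can miss the loss of a floxed exon. Markers of other cells moved with the label. All 10 of 10 neutrophil markers were higher, with summed normalized counts of 16305 to 36512 in PBS and 1906400 to 1975570 in the libraries labelled pIpC, and none was at 0 in either group. All 9 erythroid markers found were also higher (sums of 19.0 to 38.5 against 2982 to 4417, with Slc4a1 at 0 in PBS), as were 8 of 8 B cell markers (136 to 305 against 1283 to 2321, Ms4a1 at 0 in PBS). Most markers that passed of monocytes (4 of 6 higher, 1 lower), T and NK cells (5 of 5 tested higher), basophils and mast cells (4 of 6 higher, 1 lower), megakaryocytes (6 of 6 tested higher) and stroma (4 of 6 higher, 1 lower) were higher as well. Of 8 macrophage markers, 6 were higher, while the abundant Adgre1 (4156 to 4427 in PBS, 268 to 356 in the libraries labelled pIpC) and Vcam1 were lower. Of 5 eosinophil markers, 2 were higher and Siglecf was lower, at 5658 to 6391 and then 655 to 748. Of 5 genes of the MLL-AF9 program, Hoxa7, Hoxa9, Hoxa10 and Meis1 were lower and Mef2c higher. Their sums were 11525 to 11616 in PBS and 1660 to 1781 in the libraries labelled pIpC. Mef2c alone was at 1.1 to 11.1 in PBS and at 1059 to 1111 in the libraries labelled pIpC, so it held much of the latter sums. From PBS to the libraries labelled pIpC, the means were 1271 and 146 for Hoxa7 and 5130 and 256 for Hoxa9. They were 1537 and 17.8 for Hoxa10 and 3620 and 224 for Meis1. Over all genes tested, 25.0% were higher and 20.4% lower by the same test. Some markers met the minimum of 10 only through the libraries labelled pIpC, so they had to be higher. These were 8 of 9 erythroid, 6 of 8 B cell, 4 of 5 T and NK cell and 4 of 6 megakaryocyte markers. Mef2c, 2 basophil and mast cell, 2 stromal and 1 eosinophil marker were also kept in this way. Xist, the RNA of the inactive X chromosome, was at 15.8 to 72.9 in PBS and 18429 to 26173 in the libraries labelled pIpC. The part of these differences in the results below was not tested, and in bulk RNA fewer cells of a type and less RNA per cell cannot be told apart.

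The libraries labelled pIpC were lower than PBS for 8 of the 10 genes and higher for none, while Junb and Atf3 did not pass the threshold (limma, Benjamini-Hochberg adjusted p under 0.1 over all genes tested). Over all genes tested, 20.4% were lower by the same rule and 25.0% higher. Egr2 met the minimum through PBS alone, and of the 9 genes with a mean of at least 10 in both groups 7 were lower. All 10 fold changes were below 0, with a median log2 fold change of -2.50, beside 0.01 over all genes tested. The same 8 genes had every library labelled pIpC below every PBS library, which 26.3% of all genes tested did. Among all genes tested, 164 had a lower fold change than Fosb, the lowest of the 10.

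**Figure D1:**
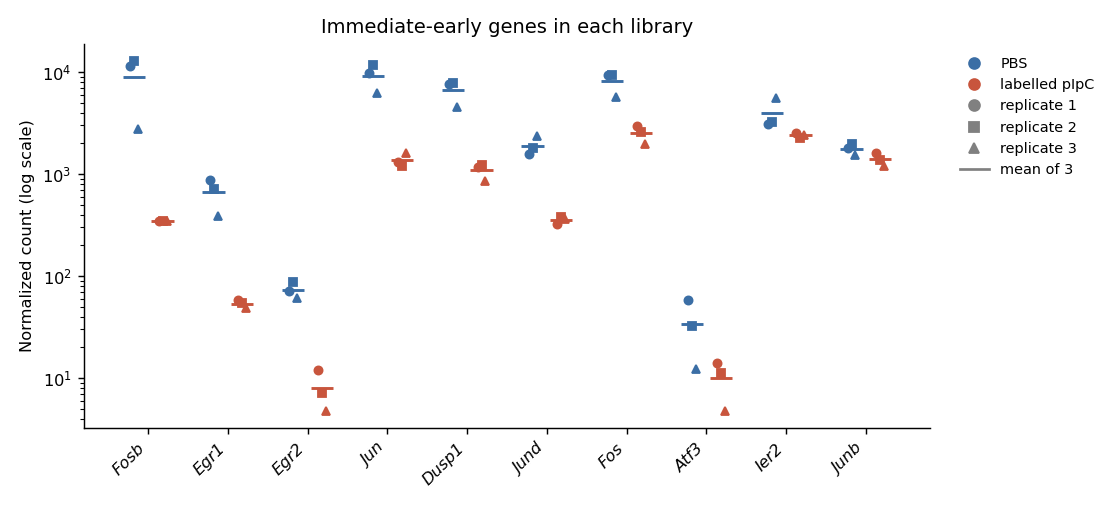
Normalized counts (log scale) of the 10 genes in each library, ordered by fold change. Points are single libraries, with the marker shape giving the replicate, and horizontal bars are group means of 3. PBS replicate 3 lies below PBS replicates 1 and 2 for 8 genes and above them for Jund and Ier2.

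The upstream sequences of 5 of these genes are shown first, since the members are known for sharing inducible promoter elements. Each is the 200 bases before the start site in RefSeq (GRCm38.p6), 5′ to 3′ on the gene's own strand. Capitals mark TGACG (the core of the CREB/ATF element, which the 8-base palindrome TGACGTCA contains), TGACATCA (a variant of that palindrome through which Jun is known to act on its own gene), GCGNGGGCG (the EGR site) and TATAAA.

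Fos, chr12:85473690-85473889, plus strand: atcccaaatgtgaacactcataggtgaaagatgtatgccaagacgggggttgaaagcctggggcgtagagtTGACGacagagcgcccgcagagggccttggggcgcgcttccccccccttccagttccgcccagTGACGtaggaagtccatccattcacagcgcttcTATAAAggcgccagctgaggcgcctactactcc

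Fosb, chr7:19310046-19310245, minus strand: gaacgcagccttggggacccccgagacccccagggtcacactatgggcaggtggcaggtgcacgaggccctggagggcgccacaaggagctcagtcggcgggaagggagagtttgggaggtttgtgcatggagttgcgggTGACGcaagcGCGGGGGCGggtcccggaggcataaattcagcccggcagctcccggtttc

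Jun, chr4:95052223-95052422, minus strand: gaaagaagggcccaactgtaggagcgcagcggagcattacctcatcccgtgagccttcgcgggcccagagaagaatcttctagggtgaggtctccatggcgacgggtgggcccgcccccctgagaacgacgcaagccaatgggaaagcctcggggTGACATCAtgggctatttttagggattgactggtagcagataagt

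Junb, chr8:84978749-84978948, minus strand: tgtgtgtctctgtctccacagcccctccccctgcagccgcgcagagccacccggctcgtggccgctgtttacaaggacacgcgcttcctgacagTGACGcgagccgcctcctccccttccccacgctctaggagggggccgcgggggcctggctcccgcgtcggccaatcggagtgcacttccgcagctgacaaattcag

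Dusp1, chr17:26508473-26508672, minus strand: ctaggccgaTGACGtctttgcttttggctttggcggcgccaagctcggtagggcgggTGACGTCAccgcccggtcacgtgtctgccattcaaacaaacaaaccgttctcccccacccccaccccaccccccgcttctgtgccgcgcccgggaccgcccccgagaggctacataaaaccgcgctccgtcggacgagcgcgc

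Counted on both strands over the 250 bases before any start of a gene in the RefSeq table, TGACG was in 6 of 7 members (Fos, Fosb, Junb, Egr2, Atf3 and Dusp1) and in 19.8% of all 27025 genes. The 6 include Junb and Atf3, which did not pass the test, and leave out Jun, which did. The palindrome TGACGTCA was found in Dusp1 among the members and in 1.77% of all genes, and TGACATCA, searched for after the Jun sequence was read, in Jun and in 3.41%. A CArG box, the site of SRF, was found in 4 of the 5 windows of Egr2, which overlap in part, in no other member, and in 1.62% of all genes. Bases farther upstream were not searched, so a gene without a hit may hold the site there. TATAAA was found in Fos and in 14.3%, and GCGNGGGCG in Fosb and in 5.33%. The consensus AP-1 site TGANTCA was in none of the 7 and in 7.82% of all genes. Egr1 and Ier2 have no entry in the table. Jund was left out because its window there ends at chr8:70697738, ahead of the GENCODE gene at chr8:70698949-70700616. With Jund counted, TGACG was in 6 of 8 members. Dusp1 and Atf3 were kept, although their starts there also differ from those of the GENCODE genes. Their windows begin at chr17:26508473 and chr1:191183334, inside minus-strand genes that end at 26562128 and 191218039.

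Fos (ENSMUSG00000021250, chr12:85473890-85477273, 4 exon blocks) encodes the FOS subunit, which in AP-1 dimerizes with a JUN partner. Its normalized counts were 9294, 9366 and 5636 in PBS and 2934, 2581 and 1983 in the libraries labelled pIpC. The groups did not overlap, and the mean in the libraries labelled pIpC was 30.9% of that in PBS. The log2 fold change was -1.68 ± 0.25 (SE, adjusted p = 0.00226, limma).

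Fosb (ENSMUSG00000003545, chr7:19302696-19310051) encodes a paralog of FOS, known also for a truncated, long-lived splice form that a count per gene cannot separate. It had the lowest fold change of the 10 genes. Normalized counts were 11417, 12657 and 2755 in PBS and 348.3, 349.4 and 348.1 in the libraries labelled pIpC. The groups did not overlap, although PBS replicate 3 stood far below the other PBS libraries. The log2 fold change was -4.40 ± 0.56 (SE, adjusted p = 0.00109, limma), and -5.10 without PBS replicate 3, over 1.5 times the linear fold with it.

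Jun (ENSMUSG00000052684, chr4:95049034-95052222, a single exon) encodes the JUN subunit, the usual partner of FOS. Its normalized counts were 9854, 11623 and 6164 in PBS and 1310, 1209 and 1598 in the libraries labelled pIpC. No library of one group reached the other, and the fold change on the log2 scale was -2.71 ± 0.25 (SE, adjusted p = 2.81e-04, limma). The antisense gene Junos, which lies on the other strand and shares 232 exonic bases with Jun, went the other way and is named here after its values were seen. Junos was at 21.6, 17.2 and 6.8 in PBS and at 386, 460 and 472 in the libraries labelled pIpC (4.89 ± 0.41 on the log2 scale, SE, adjusted p = 1.96e-04, limma). The labels give an unstranded library, in which reads of the shared bases cannot be assigned to one strand.

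Junb (ENSMUSG00000052837, chr8:84974484-84978718) encodes a JUN family subunit that is a weaker activator than JUN on most sites and an inhibitor of myeloid proliferation. Normalized counts were 1779, 1977 and 1526 in PBS and 1588, 1384 and 1201 in the libraries labelled pIpC, and the groups overlapped. The log2 fold change of -0.34 had a 95% interval of -0.72 to 0.04 (adjusted p = 0.141, limma). Without PBS replicate 3, Junb passed the threshold at a log2 fold change of -0.44 (adjusted p = 0.00953, limma). Junb shares 173 exonic bases with Prdx2 on the other strand, which was at 994 to 2335 in PBS and 1462 to 1686 in the libraries labelled pIpC.

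Jund (ENSMUSG00000071076, chr8:70698949-70700616, a single exon) encodes the JUN family member that resting cells express and that is induced least by signals. Its normalized counts were 1555, 1777 and 2348 in PBS and 323, 375 and 359 in the libraries labelled pIpC. The groups did not overlap (log2 fold change of -2.40 ± 0.18, SE, adjusted p = 1.19e-04, limma), so Jund fell with Fos and Jun. A predicted gene on the other strand, Gm11175, shares 877 of the exonic bases and was listed at 0 in all 6 libraries.

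Egr1 (ENSMUSG00000038418, chromosome 18) encodes the zinc-finger factor EGR1, which restrains proliferation of hematopoietic stem cells and favors macrophage differentiation. Normalized counts were 870, 717 and 390 in PBS and 58.9, 54.1 and 48.3 in the libraries labelled pIpC. All libraries labelled pIpC lay below all PBS libraries, and Egr1 fell to 8.16% of the PBS mean (log2 fold change of -3.52 ± 0.31, SE, adjusted p = 2.36e-04, limma).

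Egr2 (ENSMUSG00000037868, chr10:67535475-67542188) encodes the related EGR2. Its normalized counts were 71.8, 88.1 and 61.1 in PBS and 12.0, 7.2 and 4.8 in the libraries labelled pIpC. The groups did not overlap. The values in the libraries labelled pIpC rest on 5 to 12 reads, and the gene met the minimum of 10 through its PBS libraries, since the mean in the libraries labelled pIpC was 7.99. A gene kept in this way had to differ, so its log2 fold change of -3.12 ± 0.38 (SE) is given as a description, and its size depended on the constant added to low values.

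Atf3 (ENSMUSG00000026628, chr1:191170296-191218039) encodes a stress-induced partner of JUN proteins that represses cytokine genes. Its normalized counts were 58.0, 32.4 and 12.4 in PBS and 14.0, 11.2 and 4.8 in the libraries labelled pIpC, with PBS replicate 3 inside the range of the other group. It rests on 5 to 67 reads a library, and the log2 fold change of -1.54 ± 0.64 (SE) missed the threshold (adjusted p = 0.103, limma). With all 6 libraries it passed with edgeR (adjusted p = 0.0699), DESeq2 (adjusted p = 0.0367) and under quantile normalization (-2.48, adjusted p = 0.0234, limma), and it passed without PBS replicate 3 (-2.12, adjusted p = 0.00535, limma). Over all settings run its adjusted p lay between 0.00535 and 0.282.

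Ier2 (ENSMUSG00000053560, chr8:84661331-84662852, a single exon) encodes a nuclear protein induced with Fos and Jun. Normalized counts were 3098, 3222 and 5568 in PBS and 2499, 2261 and 2427 in the libraries labelled pIpC. The groups did not overlap, but the fall was small beside the others and PBS replicate 3 was the high library here. The log2 fold change of -0.67 ± 0.24 (SE, adjusted p = 0.0649, limma) was -0.40 without PBS replicate 3, and the call was lost without pIpC replicate 1, 2 or 3 (adjusted p of 0.145, 0.186 and 0.160).

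Dusp1 (ENSMUSG00000024190, chr17:26505590-26562128) encodes the phosphatase that inactivates p38 and JNK. Its normalized counts were 7633, 7771 and 4579 in PBS and 1162, 1231 and 854 in the libraries labelled pIpC. The groups did not overlap, and the log2 fold change of -2.60 ± 0.25 (SE, adjusted p = 3.33e-04, limma) was close to that of Jun.

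**Figure D2:**
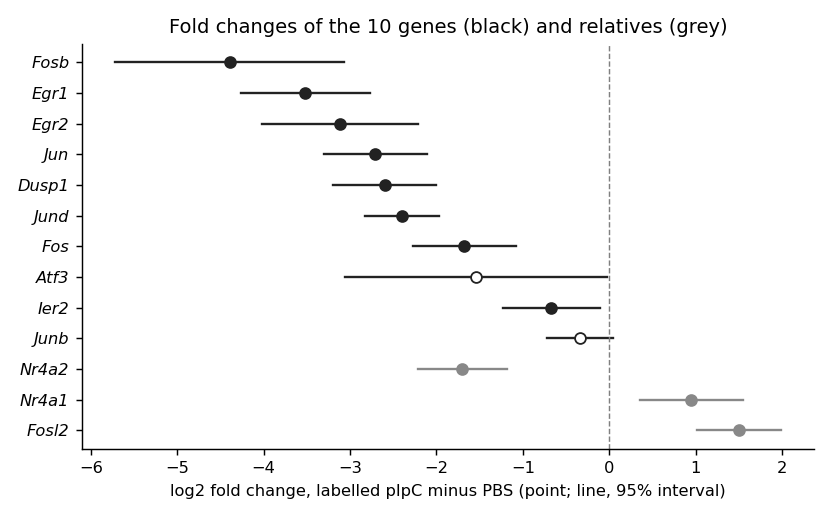
Log2 fold changes on the log2(normalized count + 1) scale, libraries labelled pIpC minus PBS, with 95% intervals. Black points are the 10 genes and grey points are tested relatives of the FOS and NR4A families; filled points passed an adjusted p of 0.1. Fosb is lowest at -4.40, and Fosl2 is highest at 1.50.

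PBS replicate 3 stood apart from the other PBS libraries for many of these genes. Its log2 difference from the mean of PBS replicates 1 and 2 was below 0 for 8 of the 10 genes: -2.13 for Fosb, -1.72 for Atf3, -1.01 for Egr1, -0.80 for Jun, -0.75 for Dusp1, -0.73 for Fos, -0.37 for Egr2 and -0.30 for Junb. It was higher for Jund (0.50) and Ier2 (0.82), the 2 members with the shortest exon lengths. Over all genes tested the same difference moved with exon length: its median was 0.74 for 3535 genes of up to 2 kb, 0.26 for 4309 genes of 2 to 4 kb, -0.21 for 4944 genes of 4 to 8 kb and -0.67 for 2217 longer genes. Apart from Ier2, each of the 10 genes lay below the median of its length class. Without this library all 10 genes passed the threshold and none was higher. Of all 15020 genes tested, 4597 were then lower and 5186 higher, beside 3058 and 3750 with all 6 libraries. With each library's trend on length removed, the fold changes ran from -4.52 (Fosb) to -0.15 (Junb) and 8 genes passed. Of 15005 genes in that fit, 3548 were lower and 4164 higher.

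**Figure D3:**
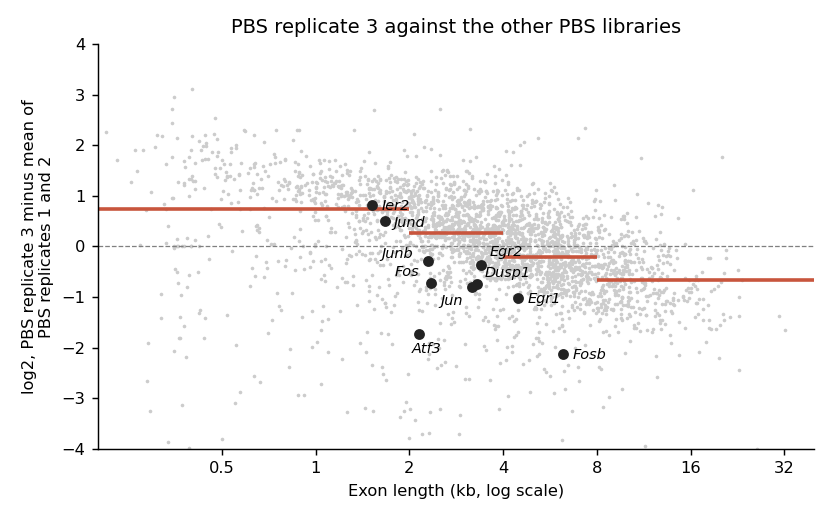
Difference of PBS replicate 3 from the mean of PBS replicates 1 and 2 (log2) against exon length (kb, log scale). Grey points are a sample of the genes tested, black points the 10 genes, and red lines the medians of 4 length classes, which run from 0.74 to -0.67. Fosb and Atf3 lie farthest below the median of their class.

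Levels of different genes were compared per kb of exon. The lengths include exonic bases shared with a gene on the other strand, 877 of 1668 in Jund. If reads in shared bases were not counted, the level of Jund is too low, which was not tested. In PBS the order of the mean normalized count per kb was Fos (3443 ± 907, SD, n = 3), Jun (2889 ± 873), Ier2 (2603 ± 914), Dusp1 (2012 ± 545), Fosb (1432 ± 864), Jund (1135 ± 245), Junb (765 ± 98.3), Egr1 (147 ± 54.6), Egr2 (21.7 ± 3.99) and Atf3 (15.9 ± 10.6). From Fos down to Jund the library values of each gene overlapped those of the next, as did those of Egr2 and Atf3. In the libraries labelled pIpC the order was Ier2 (1574 ± 80.3), Fos (1063 ± 204), Junb (605 ± 84.1), Jun (430 ± 63.3), Dusp1 (327 ± 60.6), Jund (211 ± 15.8), Fosb (55.8 ± 0.11), Egr1 (12.0 ± 1.18), Atf3 (4.65 ± 2.18) and Egr2 (2.35 ± 1.07). There, Atf3 and Egr2 were the only neighbours whose libraries overlapped. Junb thus stood in the seventh place in PBS and in the third here, and Fosb in the fifth and then the seventh.

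The make-up of the FOS and JUN families was compared as shares of their summed level. The limit given for the length of Jund holds for its share too. Summed over Fos, Fosb, Fosl1, Fosl2, Jun, Junb and Jund, the level per kb was 10664, 11660 and 6900 in PBS and 2799, 2622 and 2327 in the libraries labelled pIpC. Fosb made up 17.1, 17.4 and 6.39% of that sum in PBS and 1.99, 2.13 and 2.40% in the libraries labelled pIpC. Jun made up 29.0, 31.3 and 28.0%, then 14.7, 14.5 and 21.5%. Junb took a larger share in the libraries labelled pIpC, at 7.25, 7.37 and 9.61%, then 24.7, 22.9 and 22.4%. Its own mean per kb did not rise (765, then 605), so the larger share came with the smaller sum. Fosl2, the FOS family subunit FRA2, also took a larger share, at 0.83, 0.70 and 0.85%, then 7.07, 9.86 and 8.16%. Unlike that of Junb, its mean per kb was higher (76.3, then 215). For these 4 subunits the groups did not overlap (exact permutation test, 2-sided p = 0.1, the smallest that 3 against 3 libraries allow). Fos held 35.3% ± 1.54 and 40.9% ± 4.25 (SD, n = 3; exact permutation p = 0.2) and Jund 12.8% ± 6.62 and 8.25% ± 1.19 (exact permutation p = 0.3), where PBS replicate 3 alone was at 20.4%.

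**Figure D4:**
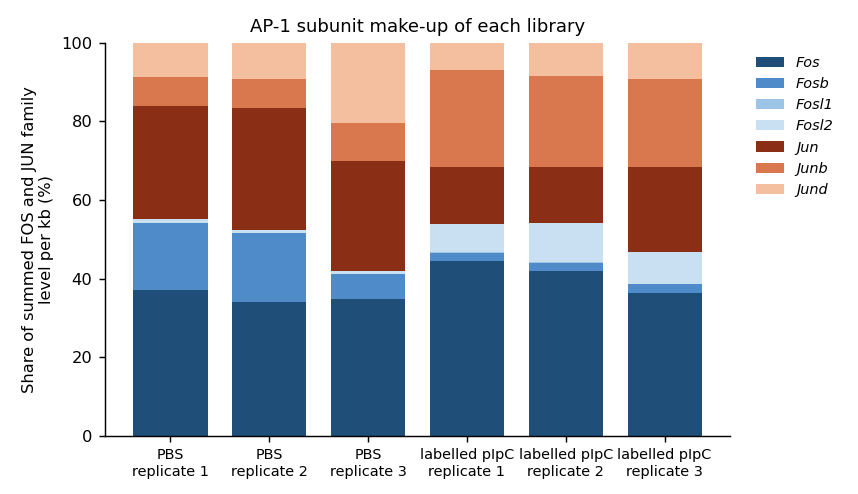
Share of each FOS family (blue) and JUN family (red) gene in their summed normalized count per kb, in percent, for each library; bars start at 0 and end at 100. Fosb takes 6.39 to 17.4% in PBS and at most 2.40% in the libraries labelled pIpC, where Junb takes 22.4 to 24.7% and Fosl2 7.07 to 9.86%.

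The other genes of the FOS, EGR and NR4A families did not share one direction. Fosl2 was at 860, 789 and 568 normalized counts in PBS and 1916, 2501 and 1837 in the libraries labelled pIpC (1.50 ± 0.20 on the log2 scale, SE, adjusted p = 0.00152, limma). Nr4a1, an orphan nuclear receptor of the immediate-early wave, was at 189, 156 and 104, then 305, 252 and 289 (0.95 ± 0.25, SE, adjusted p = 0.0250, limma). Its paralog Nr4a2 was at 151, 180 and 131, then 42.9, 47.0 and 49.3 (-1.70 ± 0.22, SE, adjusted p = 0.00111, limma). Nr4a1 rose and Nr4a2 fell, so the paralogs moved apart. The other relatives were too low to be tested: Fosl1 (0 to 1.1 in PBS, 1.0 to 9.2 in the libraries labelled pIpC), Egr3 (0.9 to 3.4, then 5.8 to 13.3), Nr4a3 (0, then 2.0 to 6.1) and Egr4 (0 in all libraries).

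Wider lists of related genes are given by their counts, each to be read against the 25.0% of all genes tested that were higher and the 20.4% that were lower. No list was tested as a set, and Batf3, Id3, Arc and Dusp16 met the minimum only through the group in which they were high. Of 12 tested AP-1 and bZIP partner genes, 7 were higher and 2, Batf and Maff, were lower, with a median log2 fold change of 0.40 (0.01 over all genes tested). Without pIpC replicate 2 or 3, 5 of the 12 passed in either direction in place of 9. Over all genes tested, 4650 and 4750 then passed in place of 6808. Of 12 other immediate-early transcription factors, 7 were higher and 3 lower (median 0.77, beside 25.0% and 20.4% of all genes tested). Klf2, the Krüppel-like factor of quiescent lymphocytes and endothelium, and Id2, an inhibitor of bHLH factors, are named after their values were seen. Klf2 fell from 3760, 3830 and 4332 to 614, 692 and 752, and Id2 rose from 139, 135 and 172 to 1923, 1952 and 2172.

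Of 23 tested immediate-early effector and feedback genes, 8 were higher and 10 lower (median -0.18), where 25.0% and 20.4% of all genes tested were. Ccl3, a macrophage chemokine, had the lowest log2 fold change at -4.92 ± 0.19 (SE, adjusted p = 1.77e-05, limma), with 1187 to 1381 normalized counts in PBS and 32.7 to 46.9 in the libraries labelled pIpC. Trib1, a pseudokinase that promotes degradation of C/EBPα, had the highest at 3.94 ± 0.56 (SE, adjusted p = 0.00184, limma). The most abundant genes that passed were Rhob, a small GTPase, at 7908 to 9503 in PBS and 2484 to 2928 in the libraries labelled pIpC, and Zfp36l2, which binds AU-rich messenger RNAs, at 4243 to 4790 and 6867 to 7853.

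Among 14 tested feedback genes (MAP kinase phosphatases, Sprouty and Spred genes and the EGR corepressors Nab1 and Nab2), 6 were higher and 3 lower (median 0.07). The share that was lower was near the 20.4% of all genes tested, and 25.0% of those were higher. Spry2, an inhibitor of receptor tyrosine kinase signaling, had the lowest log2 fold change at -1.80 ± 0.14 (SE, adjusted p = 1.35e-04, limma). Dusp16, a phosphatase of JNK, had the highest fold change and met the minimum only through the libraries labelled pIpC, with 0, 3.0 and 0 normalized counts in PBS and 72.9, 42.9 and 53.2 in the libraries labelled pIpC. Nab1, the most abundant that passed, was at 0.43 ± 0.14 (SE, adjusted p = 0.0559, limma).

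Of 24 genes of the MAP kinase pathway, which leads to these promoters, 11 were higher (25.0% of all genes tested) and 1 (20.4% of all), the JNK kinase Map2k7, was lower at -0.47 ± 0.14 (SE, adjusted p = 0.0403, limma), with a median of 0.31. Without PBS replicate 3, 17 passed in either direction, and without any 1 library labelled pIpC, 7. Over all genes tested, the 6808 calls were 9783 without PBS replicate 3. They were 4650 to 5060 without 1 library labelled pIpC. Mapk13, a p38 isoform, rose from 112 to 222 normalized counts to 2506 to 3120. Mapk3, which encodes ERK1, was at 1.32 ± 0.19 (SE, adjusted p = 0.00176, limma), and Rps6ka3, a kinase that ERK activates, at 1.33 ± 0.27 (SE, adjusted p = 0.00933, limma).

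Of 12 SRF and CREB factors and coactivators, 5 were higher and 2, Srf and Elk3, were lower (median 0.27). The share that was lower was near the 20.4% of all genes tested, of which 25.0% were higher. The 7 calls were 11 without PBS replicate 3, 3 without PBS replicate 2 or pIpC replicate 1 or 3, and 2 without pIpC replicate 2. Over all genes tested, the 6808 calls ranged from 4650 to 9783 in these fits. Crem, a CREB family gene, was highest at 1.46 ± 0.25 (SE, adjusted p = 0.00395, limma). The SRF coactivator Mrtfb was lowest at -0.74 ± 0.40 (SE) and did not pass (adjusted p = 0.193, limma). The abundant Mrtfa and Atf1 passed at 0.37 ± 0.15 and 0.29 ± 0.11 (SE, adjusted p of 0.0942 and 0.0869, limma).

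Heat shock genes, which cell handling can also raise, were set beside the 10 genes. Of 11 tested, 4 were lower and none was higher (median -0.53), beside 20.4% and 25.0% of all genes tested. The 4 calls were 1 without pIpC replicate 2 or 3, 2 without PBS replicate 2 and 5 without PBS replicate 1. Over all genes tested, the 6808 calls were 4650 without pIpC replicate 2 and 4750 without pIpC replicate 3. They were 6076 without PBS replicate 2 and 6666 without PBS replicate 1. Hspa8 was at 37208, 51782 and 74413 normalized counts in PBS and 30541, 27033 and 23686 in the libraries labelled pIpC (-0.96 ± 0.28, SE, adjusted p = 0.0356, limma), and Hsp90aa1 at -0.53 ± 0.19 (SE, adjusted p = 0.0711, limma). The inducible Hspa1a had the lowest fold change and did not pass (-1.06 ± 0.83, SE, adjusted p = 0.357, limma): it was at 47.6, 501 and 91.7 in PBS and 41.6 to 90.8 in the libraries labelled pIpC, so PBS replicate 2 alone stood apart. Dnajb1 had the highest at -0.08 ± 0.14 (SE, adjusted p = 0.691, limma). The part of cell handling in the fall of the 10 genes was not tested.

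**Figure D5:**
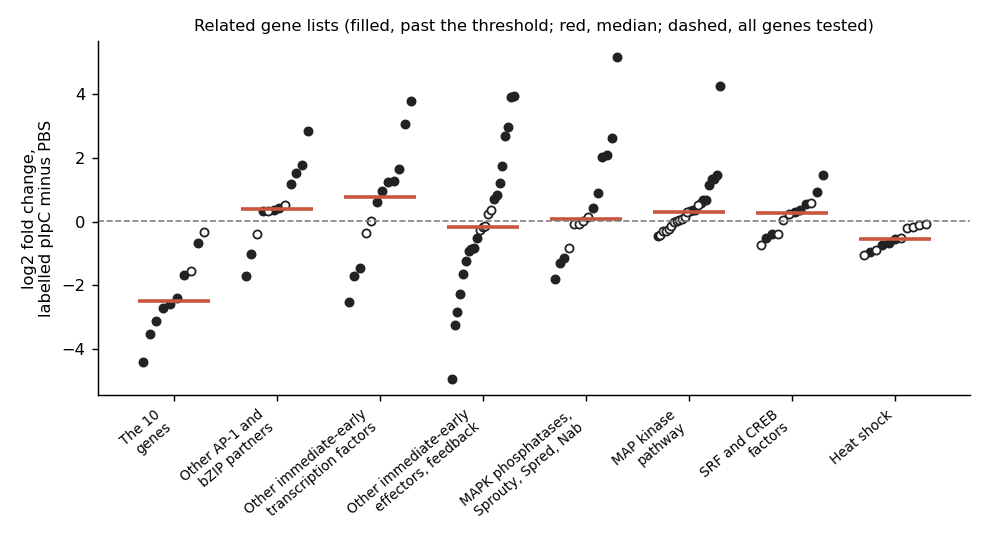
Log2 fold changes (libraries labelled pIpC minus PBS) of the tested genes of each list, ordered within it. Filled points passed an adjusted p of 0.1, red lines are list medians and the dashed line is the median of all genes tested. The median is -2.50 for the 10 genes and between -0.53 and 0.77 for the other lists.

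Among the genes outside the list whose centred log2 profile over the 6 libraries lay nearest to that of Fos were P2ry2, a nucleotide receptor, Ttc28, Rbfox2, a splicing factor, and Zbtb40. Their root mean square distance was 0.11 to 0.13 on the log2 scale, and since they were chosen for this likeness, their fall with Fos (log2 fold changes of -1.73 to -1.58) is a description. P2ry2, the nearest, was at 604, 581 and 421 normalized counts in PBS and 177, 176 and 139 in the libraries labelled pIpC. Among the other members the nearest to Fos was Dusp1, at 0.47, and the farthest Fosb, at 1.45.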

How the data were processed

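The deposited table holds a signal per gene, normalized counts that the authors made by dividing gene reads by 1 factor per library. Divided by what 1 read is worth, 100% of values above 0 came out whole (tolerance of 0.01 reads), so whole reads were recovered. The submitters' processing notes name HISAT2 2.2.1, SAMtools, featureCounts, Subread, edgeR and GRCm38, and an unstranded TruSeq poly(A) library from GFP+ cells. The study's methods describe stranded libraries from c-Kit+ cells and other aligners, and which made this table is not settled here. Ensembl identifiers were given symbols, exons and positions from GENCODE for GRCm38 (55141 of 55487 named). Promoters came from RefSeq for GRCm38.p6.

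Differences were tested with limma 3.58.1 (R 4.3.3) on log2(normalized count + 1) with an intensity trend, 2-sided, for the 15020 genes with a mean of at least 10, with no replicate block. Benjamini-Hochberg adjusted p under 0.1, the study's threshold, counted as a call. Fold changes on this scale understate the change of low genes. Intervals are 95%. edgeR 4.0.16 and DESeq2 1.42.0 on recovered reads were alternatives. The fits were tested on simulated data. Nothing in the labels says that replicates are separate animals, so p-values measure the spread between these samples, which may be technical. The 10 genes and the lists were chosen with earlier results of these data known. Genes named were the 10, Brd9, the FOS, EGR and NR4A relatives, of each other related list the highest and lowest fold change and the 2 most abundant that passed, and the 5 genes nearest to Fos, of which 1 is not reported here.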

Additional observations from a re-analysis of the deposited data

How the results depend on the processing

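Over 208 repeats of the fold changes of the 10 genes under other settings, 194 kept their direction and side of the threshold, 4 lost a call, 10 gained one and none reversed. Not all settings could reverse a direction. The stricter threshold, the 2 other filters, the replicate block and no intensity trend leave the fold changes as they were, so only the calls could move. The lost calls were all of Ier2 (an adjusted p under 0.05, and each pIpC library left out), and the gained ones were of Junb (2) and Atf3 (8). Between 7 and 10 of the 10 genes were lower under every setting run. The count was 7 without pIpC replicate 2 and 10 without PBS replicate 3, where 1860 and 4597 of all 15020 genes tested were lower. With a minimum mean of 50, Egr2 and Atf3 gave no value. The log2 fold change of Egr2 was -2.22 with 10 added and -4.04 under quantile normalization, beside -3.12. Quantile normalization moved the median of all genes to -0.12 and turned the share of calls that were higher from 55.1 to 44.3% (3244 higher and 4078 lower, beside 3750 and 3058). The 6808 calls over all genes ranged from 4650 to 9783 with 1 library left out, the highest without PBS replicate 3. edgeR gave 6901 and DESeq2 7451.

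The replicate numbers did not pair the samples (correlations of -0.12, 0.14 and 0.04 between same-numbered deviations). With the replicate block 6095 genes were called and 9 of the 10 genes were lower, Atf3 gained at an adjusted p of 0.0378, and 3 SRF and CREB genes and 2 heat shock genes passed, as they did with the GC trend also removed (3 and 2).

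The lists were less stable, and the cause was not tested. The SRF and CREB genes that passed went from 7 to 4 at an adjusted p under 0.05, with no filter, under quantile normalization and with no intensity trend. Over all genes, the 6808 calls of 15020 tested were 5367 at an adjusted p under 0.05 and 7322 under quantile normalization. With no filter they were 7910 of 27901. With no intensity trend 3565 genes were higher and 2881 lower, beside 3750 and 3058. Heat shock genes went from 4 to 2 at an adjusted p under 0.05. With 1 library left out, 2 to 11 SRF and CREB genes, 1 to 5 heat shock genes, 7 to 17 MAP kinase pathway genes and 5 to 10 AP-1 partner genes passed. In those fits 4650 to 9783 of all genes tested passed. List medians moved as follows. The feedback gene median of 0.07 was 0.43 with no filter, -0.057 under quantile normalization, 0.19 with the length trend removed (with or without the replicate block), 0.16 with the GC trend removed (with or without it) and 0.034 to 0.23 with 1 library left out. The MAP kinase median was 0.19 under quantile normalization, 0.16 with the length trend removed (with or without the block) and 0.18 to 0.36 with 1 library left out. The effector median of -0.18 was 0.22 at a mean of at least 50. The AP-1 partner median was 0.26 under quantile normalization and 0.34 to 0.53 with 1 library left out, and the heat shock median -0.71 to -0.23. Depth limits Atf3 and Egr2, at 5 to 14 reads in the libraries labelled pIpC.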
